A study of Mus musculus with 4 samples.

Results

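The 8 genes described here, Dazl, Ddx4, Sohlh1, Sohlh2, Stk31, Dpep3, Tex101 and Tex13b, encode regulators and surface proteins of germ cells, and they were followed in RNA from sorted lung mesenchyme of mice with and without a conditional deletion of Dnmt1. They were taken by gene name from the count table, where all 8 were found among 31247 listed genes. Cells positive for a Pdgfrb-GFP reporter were sorted from lungs on postnatal day 7, and the labels call them myofibroblasts. The wild-type group (WT, 2 libraries) is labelled as carrying the reporter alone. In the conditional knockout group (CKO, 2 libraries) the label adds Tbx4-rtTA, Tet-O-Cre and Dnmt1-D/D to the reporter. Cre from such a system is made only in cells that use the Tbx4 driver and receive doxycycline, and the doxycycline schedule is not given in the sources used here. As the WT label names neither rtTA nor Cre, effects of the transgenes and of the Dnmt1 deletion cannot be told apart.

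DNA methylation at CpG sites is copied to new strands by DNMT1, and a class of germline genes with CpG-containing promoters is known to be held silent by it in somatic cells. In the germ line, DAZL and DDX4 act on RNA: DAZL binds the untranslated ends of messages to control their translation, and DDX4 (also called VASA) is a DEAD-box helicase of the germ granule. SOHLH1 and SOHLH2 are basic helix-loop-helix transcription factors that act together in differentiating spermatogonia and in early oocytes. STK31 joins a Tudor domain to a kinase-like domain, DPEP3 and TEX101 are membrane-anchored surface proteins that bind each other on testicular germ cells, and Tex13b is an X-linked gene of testis.

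The promoter sequences are shown because the 8 genes lie on 8 different chromosomes and, apart from the SOHLH pair, belong to different protein families, so their start regions are what can be set side by side. All 8 were matched by symbol to RefSeq promoters on GRCm38.p6, with 2 start sites for Stk31. For Dazl, Sohlh2 and Dpep3, the genes with the highest levels in CKO, the stretch before the outermost annotated start is printed 5′ to 3′ on the gene's own strand, with each CpG in capitals.
Dazl, chr17:50293637-50293870, minus strand: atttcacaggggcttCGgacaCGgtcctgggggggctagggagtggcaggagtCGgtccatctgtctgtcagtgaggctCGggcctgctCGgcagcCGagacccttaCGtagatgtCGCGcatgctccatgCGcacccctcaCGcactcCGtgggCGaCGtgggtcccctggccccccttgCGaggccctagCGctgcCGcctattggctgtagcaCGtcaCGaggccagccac
Sohlh2, chr3:55181794-55182027, plus strand: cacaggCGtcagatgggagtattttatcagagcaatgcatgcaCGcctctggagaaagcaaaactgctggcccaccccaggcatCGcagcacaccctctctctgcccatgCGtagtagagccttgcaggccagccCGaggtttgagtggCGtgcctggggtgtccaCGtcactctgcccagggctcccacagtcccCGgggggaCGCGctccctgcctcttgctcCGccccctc
Dpep3, chr8:105979430-105979669, minus strand: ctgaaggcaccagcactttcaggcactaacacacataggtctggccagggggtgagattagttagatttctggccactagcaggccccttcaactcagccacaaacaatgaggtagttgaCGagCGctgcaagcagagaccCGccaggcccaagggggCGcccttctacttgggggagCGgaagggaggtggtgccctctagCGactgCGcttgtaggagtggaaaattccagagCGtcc
The printed stretches hold 19 CpGs for Dazl, 11 for Sohlh2 and 8 for Dpep3. Over the 250 bases before the RefSeq start, Dazl had 20 CpGs, Ddx4 31, Sohlh1 11, Sohlh2 14, Dpep3 10, Tex101 14 and Tex13b 11, and the 2 starts of Stk31 had 21 and 26. The median over the 32841 promoters of the table was 6 CpGs, so each of the 8 lay above it. Dpep3, the lowest, had more CpGs than 62.2% of promoters and Ddx4, the highest, more than 94.8%. The ratio of observed to expected CpGs ran from 0.47 in Dpep3 to 1.0 in Ddx4, against a median of 0.37. The RefSeq start of Ddx4 lies inside the GENCODE M21 span of the gene, so that 165 bases of its window are within the gene and the 85 bases before it hold 3 CpGs. The window of Tex101 lies wholly within its gene's span.

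The start regions differed in the letters CACGTG, the core bound by MAX and its partners, which was searched on both strands together with TCCCGC, an E2F-type core. CACGTG was found 3 times in Sohlh1, beginning 231, 211 and 192 bases before the start, and once each in Stk31 (55 bases before its first start) and Ddx4 (29 bases before its RefSeq start, within the gene's GENCODE span). It was not in the 250-base window of Dazl, Sohlh2, Dpep3, Tex101 or Tex13b. Of all promoters of that length, 6.02% held it. TCCCGC was found in Ddx4 alone of the 8, on the opposite strand, and in 16.9% of all promoters. The broader letters CANNTG, which include CACGTG and which bHLH factors bind, were in each window but that of Dpep3, and in 66.2% of promoters. The stretches of Sohlh1 and Stk31 and a short window of Ddx4 are printed with CACGTG in capitals, since these genes had the lowest CKO levels of the 8.
Sohlh1, chr2:25847249-25847498, minus strand: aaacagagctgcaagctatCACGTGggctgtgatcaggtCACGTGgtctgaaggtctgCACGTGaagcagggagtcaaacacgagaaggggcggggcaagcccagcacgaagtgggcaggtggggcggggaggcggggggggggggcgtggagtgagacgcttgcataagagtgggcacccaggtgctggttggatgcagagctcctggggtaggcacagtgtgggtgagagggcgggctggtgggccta
Stk31, chr6:49395289-49395538, plus strand: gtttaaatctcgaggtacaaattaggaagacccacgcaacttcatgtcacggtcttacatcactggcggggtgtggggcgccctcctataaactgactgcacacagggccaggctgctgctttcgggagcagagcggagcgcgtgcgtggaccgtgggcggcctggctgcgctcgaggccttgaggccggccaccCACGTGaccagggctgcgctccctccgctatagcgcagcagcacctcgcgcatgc
Ddx4, chr13:112652324-112652349, minus strand: cgtccgcccgCACGTGcagccgttta
These matches describe the letters in the windows. Methylation and factor binding were not measured here.

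Counted reads per library ran from 23071657 to 26420648, and 1 read was worth 0.0377 to 0.0439 CPM (reads scaled to a common library total, with TMM factors). The WT library named WT B had reads on 88.5% of the listed genes, against 70% to 72.1% in the other 3. Of the 9364 genes with 0 reads in WT A, 76.4% had reads in WT B, while 38.6% of the 3604 genes with 0 reads in WT B had reads in WT A. Genes with 0 reads in every library are not listed, so these shares are over genes with a read in some library. Dnmt1, the targeted gene, stood at 144 and 115 CPM in WT libraries A and B and at 78.1 and 29.5 in CKO libraries A and B. Both CKO values lay below both WT values, but the difference did not pass (log2 change -1.27 ± 0.57, SE, n = 2 per genotype, edgeR adjusted p = 0.31). It passed without CKO A (edgeR adjusted p = 3.82e-05) and without CKO B (edgeR adjusted p = 0.0401), and did not pass without WT A (0.769) or without WT B (0.638). Pdgfrb, the gene behind the sort, stood at 506 and 476 CPM in WT and at 373 and 317 in CKO. Summed over 15 mesenchyme markers the levels were 67942 to 68126 CPM in WT and 77745 to 89609 in CKO. All 15 were tested, with 0 called in edgeR, 2 higher and 4 lower at an unadjusted p under 0.05, 3 higher and 4 lower in DESeq2 and 0 in limma-voom. Elastin and collagen genes carried the sum, led by Eln (27940 and 30065 CPM in WT, 36186 and 35494 in CKO). The median log2 change of the 15 was 0.13, and single markers went both ways. Tcf21, Col1a1, Notch3, Col1a2 and Cspg4 had log2 changes of 0.78, 0.58, 0.54, 0.45 and 0.40. Pdgfrb, Pdgfra, Tbx4, Tbx5 and Myh11 had log2 changes of -0.51, -0.60, -0.59, -0.54 and -0.36. None of these passed in the main edgeR fit. Pdgfrb was at an edgeR adjusted p of 0.0546 there and passed as lower in DESeq2 (adjusted p = 0.00734). It also passed as lower in edgeR with library size alone (adjusted p = 0.0372) and with no filter on low counts (adjusted p = 0.0151). The protocol records 2 lungs of each genotype and no litter, so the p-values reflect variation among these libraries, which may be technical. In such bulk RNA, more cells that express a gene and more RNA per cell cannot be told apart.

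For 7 of the 8 genes each CKO library exceeded each WT library, and Sohlh1 was the exception. Summed over the 8, the WT libraries A and B held 2 and 14 reads and the CKO libraries A and B 2698 and 4636. All 7 were called higher by edgeR's quasi-likelihood test (adjusted p under 0.05), and 0 of the 8 were called lower. Over all 15210 tested genes 4.85% were called higher, 2.75% lower and 7.61% either way, and 27.8% had both CKO libraries above both WT libraries. The 7 entered the test only through their CKO reads and so had to differ, which leaves nothing to be read from that share. In the fit with no filter on low counts all 8 could be tested, and 7 were higher against 4.94% of 31247 genes. The 8 were chosen with earlier results of these data known, so nothing is read from that share either.

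**Figure D1:**
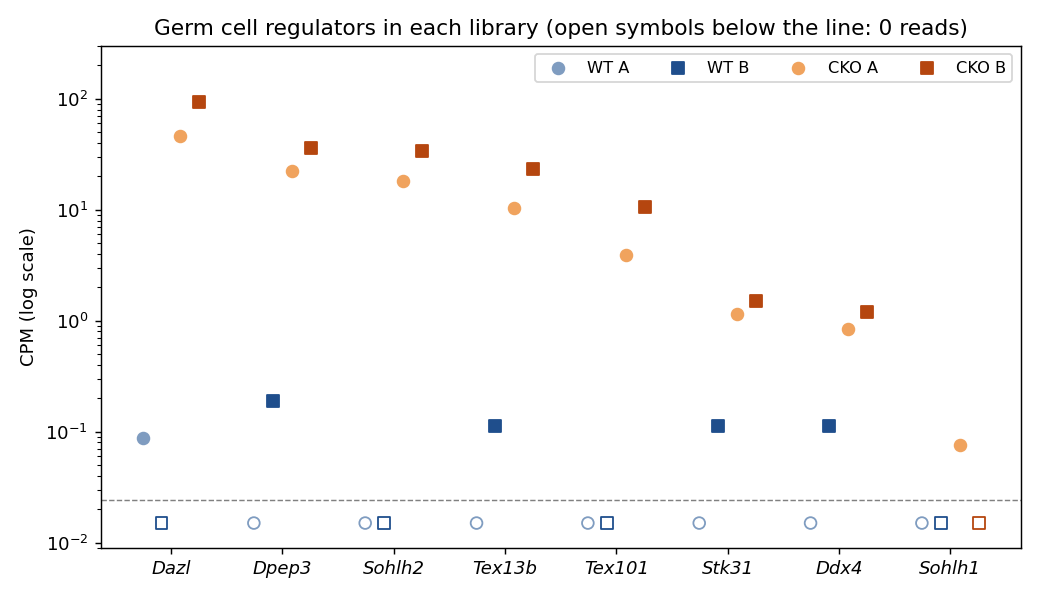
Level of each of the 8 genes in CPM (log axis) in the libraries WT A, WT B, CKO A and CKO B, ordered by CKO mean. Open symbols below the dashed line stand for libraries with 0 reads. The CKO symbols of 7 genes lie above both WT symbols, with Dazl highest at 45.9 and 93.0 CPM, while Sohlh1 has 2 reads in a single CKO library.

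Dazl, the translational regulator (ENSMUSG00000010592, chromosome 17, 50279395 to 50293636, GRCm38), had 2 and 0 reads in WT libraries A and B and 1208 and 2158 in CKO libraries A and B. Both CKO libraries were far above the WT libraries, and CKO B was the higher of the pair. The WT level was 0.0439 ± 0.062 CPM, and the CKO level was 69.5 ± 33.3 CPM (SD, n = 2 per genotype). The ratio of CKO to WT reads was 1678, with a 95% counting interval of 464 to 13860 (exact, Clopper-Pearson), and edgeR's adjusted p was 0.0115. With either WT library left out the call was lost, at an edgeR adjusted p of 0.0904 when WT A was dropped and of 0.128 when WT B was dropped, and the read ratio was then 775 for the latter. Dazl took 44.8% of the reads of the 8 genes in CKO A and 46.5% in CKO B. Of the 3525 protein-coding genes with at most 5 WT reads, Dazl had the most CKO reads.

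Ddx4, the germ granule helicase (ENSMUSG00000021758, chromosome 13, 112598333 to 112652475), had 0 and 3 reads in WT libraries A and B and 22 and 28 in CKO libraries A and B. The CKO libraries lay above the WT libraries at a low level, 1.02 ± 0.262 CPM (SD, n = 2). The read ratio was 16.6 (95% counting interval 5.37 to 83.3), and edgeR's adjusted p was 0.0332. This call did not survive the loss of any single library, with edgeR adjusted p-values of 0.112 and 0.0601 when WT A or WT B was dropped and of 0.0504 and 0.123 when CKO A or CKO B was. Its 3 WT reads all came from WT B, and without WT A the read ratio was 8.94.

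The pair of SOHLH factors parted. Sohlh2 (ENSMUSG00000027794, chromosome 3, 55182028 to 55209957) had 0 reads in each WT library and 477 and 792 in CKO libraries A and B. Only the CKO libraries held reads of it, at 26.1 ± 11.3 CPM (SD, n = 2). Taking 3 reads over both WT libraries as the floor, it was at least 422-fold higher (edgeR adjusted p = 0.00922), or at least 211-fold with 3 reads per library. The call held with each of the 4 libraries left out in turn, and the bound was 227-fold without WT A and 195-fold without WT B. Sohlh1 (ENSMUSG00000059625, chromosome 2, 25842995 to 25847248), which encodes its dimer partner, had 0 reads in each WT library, 2 in CKO A and 0 in CKO B. These counts lie under the floor of 3 reads, so that no fold is given and a difference was not detectable at this depth. With no filter on low counts edgeR gave Sohlh1 an adjusted p of 0.723, and the authors' deposited table lists an adjusted p of 1 for it.

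Stk31, the Tudor domain kinase gene (ENSMUSG00000023403, chromosome 6, 49395604 to 49469501), had 0 and 3 reads in WT libraries A and B and 30 and 35 in CKO libraries A and B. As for Ddx4, the groups were apart at a low level, here 1.32 ± 0.26 CPM in CKO (SD, n = 2). Its reads stood in a ratio of 21.6, CKO to WT, with a 95% counting interval of 7.07 to 107 and an edgeR adjusted p of 0.0205. Dropping WT A ended the call (edgeR adjusted p = 0.0529, read ratio 11.6), as did dropping CKO B (edgeR adjusted p = 0.0718). A processed pseudogene on the other strand, Gm17060, overlaps 824 bases of the locus and is not among the listed genes.

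Dpep3, a membrane dipeptidase gene (ENSMUSG00000031898, chromosome 8, 105973513 to 105979429), had 0 and 5 reads in WT libraries A and B and 586 and 838 in CKO libraries A and B. Its CKO mean was 29.2 ± 9.78 CPM against 0.0941 ± 0.133 in WT (SD, n = 2), with no overlap. The read ratio was 284 (95% counting interval 121 to 876), or 153 without WT A, and the adjusted p of 0.00396 was the lowest of the 7 in edgeR. Dpep3 and Sohlh2 were the members called with every one of the 4 libraries left out and at an adjusted p under 0.01. A long noncoding gene on the opposite strand, Gm45752, spans all 5917 bases of the locus, and the table gives it 0, 1, 1 and 0 reads in WT A, WT B, CKO A and CKO B.

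Tex101, which encodes the surface partner of DPEP3 (ENSMUSG00000062773, chromosome 7, 24668007 to 24676675), had 0 reads in each WT library and 103 and 246 in CKO libraries A and B. CKO B held more than CKO A by a ratio of 2.71 in CPM, the widest gap of the 7. It was at least 116-fold higher, on the same floor as Sohlh2, (edgeR adjusted p = 0.0199), and the call was lost when WT B was dropped (edgeR adjusted p = 0.0598). The bound was 62.4-fold when WT A was dropped, 53.6-fold when WT B was dropped and 64.4-fold when CKO B was dropped.

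Tex13b, the X-linked member (ENSMUSG00000042386, X chromosome, 140808307 to 140813433), had 0 and 3 reads in WT libraries A and B and 270 and 539 in CKO libraries A and B. The CKO mean was 16.7 ± 9.17 CPM (SD, n = 2), and neither CKO library came near the WT values. CKO exceeded WT in reads by a ratio of 269, with a 95% counting interval of 91.7 to 1306 and an edgeR adjusted p of 0.012. The call was lost when WT B was dropped (edgeR adjusted p = 0.0584), and the ratio was 145 when WT A and 169 when CKO B was dropped. Of 5 further Tex13 genes 4 were listed, with at most 2 reads in any library and none tested, among them Tex13a with 2 reads in WT B and 0 in the other libraries, and Tex13c2 with 1 read in CKO B.

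The same 7 genes had more CPM in CKO B than in CKO A, and Dnmt1 was lower in CKO B (29.5 CPM) than in CKO A (78.1). The CPM ratio of CKO B to CKO A was 2.02 for Dazl (95% counting interval 1.89 to 2.17), 1.88 for Sohlh2 (1.68 to 2.11), 1.62 for Dpep3 (1.46 to 1.80), 2.26 for Tex13b (1.95 to 2.63) and 2.71 for Tex101 (2.14 to 3.44). For Ddx4 (1.44, 0.796 to 2.65) and Stk31 (1.32, 0.789 to 2.23) the interval included 1. With 1 library on each side these intervals cover counting error only. The median ratio was 1.88 over the 7 genes and 1.00 over all tested genes with reads in both. It was 1.96 over the 184 genes that were called higher with at most 5 WT reads, of which 175 had more CPM in CKO B. CKO A was also the one library of the 4 with reads of the Y-linked gene Ddx3y (2494 reads). The part of Dnmt1 level or of sex in these differences was not tested.

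**Figure D2:**
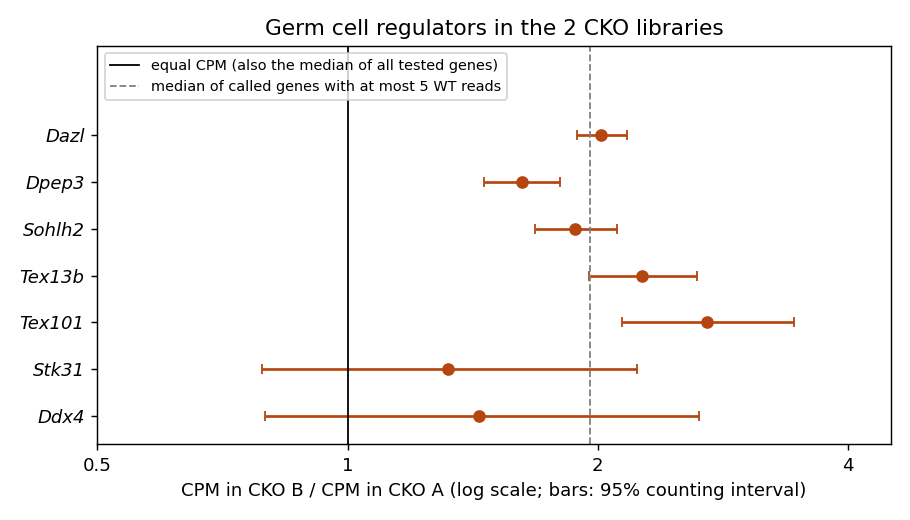
CPM in CKO B divided by CPM in CKO A (log axis) for the 7 genes with reads in both, with 95% counting intervals. The solid line marks equal levels and the dashed line the median of 1.96 over called genes with at most 5 WT reads. Tex101 lies highest at 2.71, and the intervals of Stk31 and Ddx4 reach below 1.

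Levels were compared between genes per length, as CPM per kilobase of exon (RPKM), with exons merged over transcripts. In CKO the mean RPKM was 18.2 for Dazl, 17.2 for Dpep3, 11.1 for Sohlh2, 5.98 for Tex13b, 4.38 for Tex101, 0.409 for Stk31, 0.339 for Ddx4 and 0.0295 for Sohlh1. The ranges over the 2 CKO libraries of each gene and the next overlapped among the first 5, and again for Stk31 (0.352 to 0.466) and Ddx4 (0.278 to 0.40). They did not overlap between Tex101 (2.36 to 6.40) and Stk31, or between Ddx4 and Sohlh1 (0 to 0.059). Within each CKO library the order Dpep3, Sohlh2, Tex13b, Tex101 was the same. It ran 13.1, 7.67, 3.67 and 2.36 in CKO A and 21.3, 14.4, 8.30 and 6.40 in CKO B. Dazl lay below Dpep3 in CKO A (12.0) and above it in CKO B (24.3). Set among all tested genes in CKO B, the RPKM of Dazl was at percentile 88.5 and that of Dpep3 at 86.8, while Stk31 was at 15.8 and Ddx4 at 13.9. In CKO A the same genes were at 76.1, 77.9, 13.8 and 11.3.

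**Figure D3:**
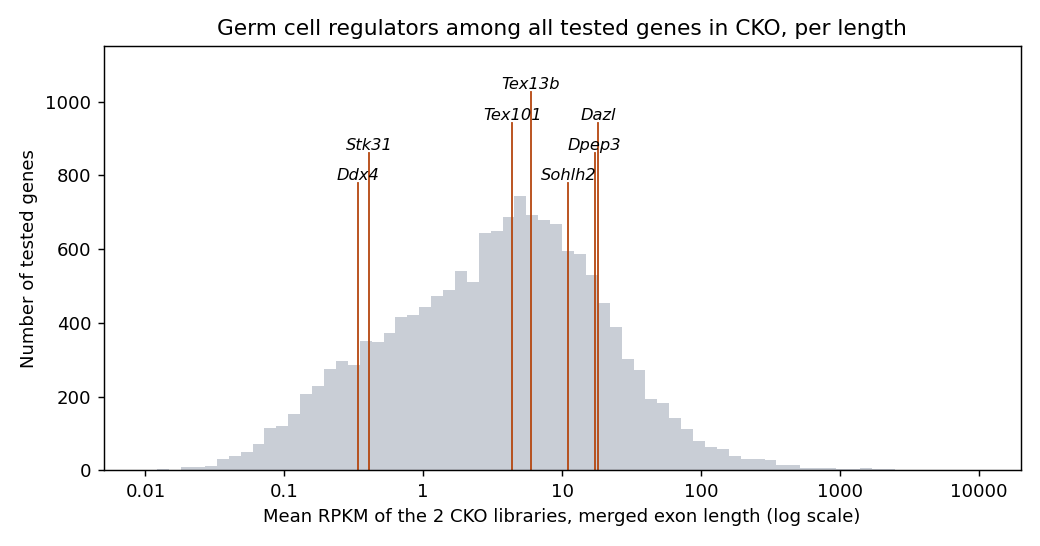
Distribution of the mean RPKM of the 2 CKO libraries over tested genes (log axis, exons merged over transcripts), with vertical lines at the 7 tested germ cell regulators. Dazl, Dpep3 and Sohlh2 stand in the upper part of the distribution at 18.2, 17.2 and 11.1, and Stk31 and Ddx4 in the lower part at 0.409 and 0.339.

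The order of the leading genes depended on which gene length was used. With the length in the authors' deposited table, CKO A and CKO B stood at 13 and 21.1 CPM per kilobase for Dpep3, 7.64 and 14.4 for Sohlh2 and 5.25 and 10.6 for Dazl, which put Dazl behind both. The deposited length of Dazl is 8746 bases against 3820 bases of merged exons, and that of Stk31 10479 against 3237. For 30708 of the 30736 genes with the same exon count in GENCODE M21, the deposited length was within 1 base per exon of the exon lengths summed over all transcripts plus 1 per exon. Exons shared by several transcripts enter such a sum repeatedly. Dazl has 6 annotated transcripts and Stk31 4, while Sohlh2 and Dpep3 have 1 each.

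Most genes next to the 8 were not tested or did not pass. Of the 16 nearest protein-coding neighbours, 1 on each side, 13 were listed and 7 tested, and edgeR called 1 higher and 1 lower. Plcl2, which lies 216 kb from Dazl and encodes an inactive phospholipase C-like protein, rose from 4.61 and 4.10 CPM in WT to 7.91 and 8.75 in CKO (log2 change 0.93 ± 0.21, SE, n = 2, edgeR adjusted p = 0.0344). Slc38a9, which lies 8.28 kb from Ddx4 and encodes a lysosomal amino acid transporter, fell from 12.4 and 14.6 CPM to 7.72 and 7.97 (log2 change -0.79 ± 0.17, SE, n = 2, edgeR adjusted p = 0.0351). Plcl2 lost its call when WT A (edgeR adjusted p = 0.114), WT B (0.219) or CKO B (0.0676) was dropped, and Slc38a9 when WT A (0.097), WT B (0.267) or CKO B (0.0516) was. Slc38a9 also missed the threshold in DESeq2 (adjusted p = 0.0509), and both did against 1.5-fold by glmTreat (adjusted p = 0.329 for Plcl2 and 0.549 for Slc38a9). The remaining tested neighbours, which did not pass, had log2 changes of -0.12 (Rftn1, beside Dazl), 0.06 (Dclk1, beside Sohlh2), 0.09 (Slc12a4, beside Dpep3), -0.34 (Mid2, beside Tex13b) and -0.66 (Fam221a, beside Stk31). The 6 listed but untested neighbours had at most 9 reads in any library. They included Dpep2, a paralog 5.51 kb from Dpep3, with 3, 2, 2 and 0 reads in WT A, WT B, CKO A and CKO B, and Ccdc169, 9.09 kb from Sohlh2, with 0, 5, 3 and 1.

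**Figure D4:**
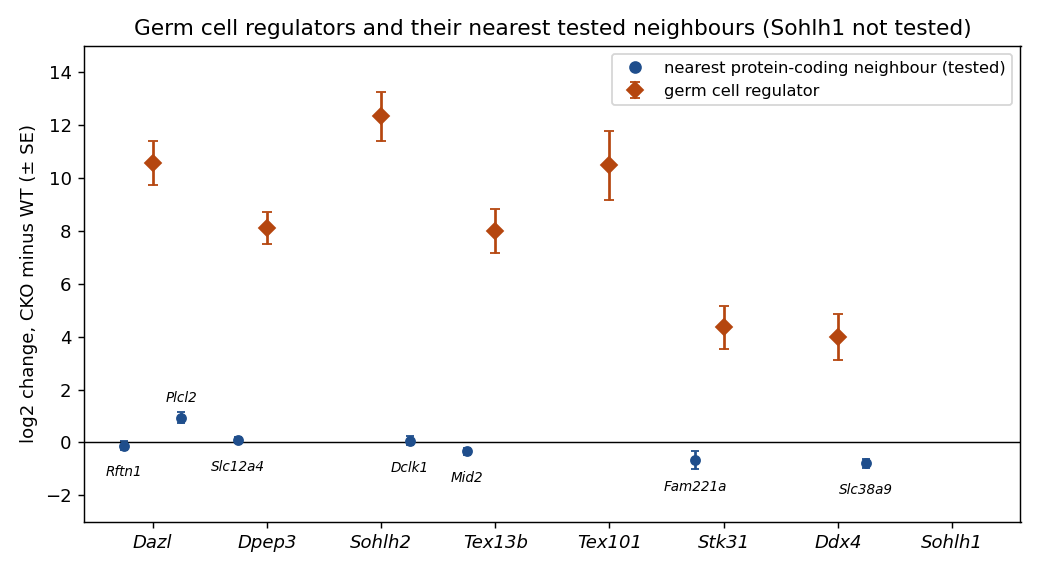
Fitted log2 change of CKO minus WT, with its SE, for the 7 tested germ cell regulators (diamonds) and the 7 tested neighbours (circles). Neighbours lie between -0.79 (Slc38a9) and 0.93 (Plcl2), and the germ cell regulators between 3.97 (Ddx4) and 12.33 (Sohlh2). Changes of genes with 0 WT reads depend on the prior count, as do their SEs, and are no bound.

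Genes related to the 8 by function, gene family or cell type changed in part. In 13 lists of related genes, 199 genes in all when each is counted once, 163 were listed, 92 were tested, and 13 were called higher and 1 lower in CKO (edgeR). The 13 made up 14.1% of those tested, beside 4.85% of all tested genes, and the median log2 change was 0.08 against -0.01 over all tested genes. Genes near 0 reads in WT reach the test only through their CKO reads, so nothing is read from that share. The number called higher was 8 with WT A dropped and 6 with WT B dropped.

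Among 19 further RNA-binding and translational regulators 12 were tested and 1, Dnd1, was called higher, with 0 lower. Dnd1, whose product binds the ends of germ cell messages, stood at 2.19 and 1.92 CPM in WT and 6.27 and 7.24 in CKO (log2 change 1.71 ± 0.25, SE, n = 2, edgeR adjusted p = 0.00869), and its call was lost when WT B was dropped (edgeR adjusted p = 0.0598). Boll, the ancestral relative of Dazl, had 4, 4, 3 and 0 reads in WT A, WT B, CKO A and CKO B. The DEAD-box relatives of Ddx4 gave 0 calls among 10 tested in edgeR, with 1 higher and 1 lower at an unadjusted p under 0.05, 1 higher and 1 lower in DESeq2, 0 in limma-voom and 1 higher in edgeR without CKO B. A further 4 relatives were listed but not tested. Of these, D1Pas1 had 1, 0, 3 and 13 reads in WT A, WT B, CKO A and CKO B. Its read ratio of CKO to WT was 16 (counting interval 2.48 to 669), beside 16.6 for Ddx4. Ddx25 had 2, 2, 3 and 8 reads (ratio 2.74, 0.812 to 11.8). Ddx43 went the other way with 0, 2, 0 and 1 (ratio 0.498). The Y-linked gene Ddx3y had reads in CKO A alone. Ddx3x, the ubiquitous helicase closest in kind to Ddx4, was at 152 RPKM in WT and 152 in CKO on the merged exon scale. Ddx4 was at 0.339 in CKO.

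Of 31 other germ cell transcription factors 12 were tested, and 3 were called higher and 0 lower. Taf7l, a germ cell TFIID subunit gene, had 1, 1, 367 and 601 reads in WT A, WT B, CKO A and CKO B, or 483 CKO reads for each WT read after scaling (95% counting interval 133 to 3990), at an edgeR adjusted p of 0.00113. Tcfl5, a bHLH factor gene of spermatocytes, had 4, 3, 25 and 70 reads and was 13.4-fold higher (edgeR adjusted p = 0.0255). Crem, a cAMP-responsive factor also used in somatic cells, was 1.64-fold higher (edgeR adjusted p = 0.0389). Dmrtb1 had 0, 0, 3 and 10 reads and was not tested. Without WT A the calls of Tcfl5 (edgeR adjusted p = 0.0691) and Crem (0.223) were lost, as without WT B (0.15 and 0.0775), and Tcfl5 was also lost without CKO B (0.132). In limma-voom 1 of the 3 calls was made, with Tcfl5 at an adjusted p of 0.0882 and Crem at 0.0526. One factor gene of the list was called lower without WT A, and 1 without CKO A.

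Other bHLH genes, whose products pair with bHLH factors or block them, were read beside Sohlh2. Of 7 bHLH partners and inhibitors all were tested, and the inhibitors Id1 and Id3 were called higher with 0 lower. Id1 was at 64.9 and 62.8 CPM in WT and 124 and 132 in CKO, 2.00-fold higher (edgeR adjusted p = 0.00369), and Id3 was 1.38-fold higher (edgeR adjusted p = 0.043). The E protein genes Tcf4 and Tcf12 had log2 changes of -0.11 and 0.03 and did not pass. The call of Id3 was lost when WT A (edgeR adjusted p = 0.218), WT B (0.237) or CKO B (0.0571) was dropped, and in limma-voom (0.0533).

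Transcripts known to be bound by DAZL or controlled by the SOHLH factors did not move as one. Of 16 such genes 7 were tested, 2 were called higher and 1 lower. Tex19.1, a transposon defence gene whose message DAZL binds, had 0, 2, 577 and 765 reads in WT A, WT B, CKO A and CKO B, or 669 CKO reads for each WT read after scaling (95% counting interval 185 to 5529), at an edgeR adjusted p of 0.000745. Sycp1, of the synaptonemal complex, had 0, 1, 34 and 53 reads (edgeR adjusted p = 0.00778), whereas Sycp3 had 1, 2, 10 and 5 and was not tested. Gfra1, the GDNF co-receptor of spermatogonial stem cells, fell from 10.1 and 6.55 CPM in WT to 3.80 and 3.75 in CKO, 2.20-fold lower (edgeR adjusted p = 0.038). That call was lost in limma-voom (adjusted p = 0.0716) and in edgeR when WT A (0.267), CKO A (0.0521) or CKO B (0.0747) was dropped. Kit, a known SOHLH target, had a log2 change of -0.26 and did not pass (edgeR adjusted p = 0.53).

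Around Stk31, 1 of 8 tested Tudor domain genes was called higher and 0 lower. This was Tdrd9, a piRNA pathway helicase gene, with 4, 9, 47 and 59 reads in WT A, WT B, CKO A and CKO B, 8.14-fold higher (edgeR adjusted p = 0.0148). Around Dpep3 and Tex101, 2 of 8 tested genes were called higher and 0 lower, and both have roles outside the germ line. Dpep1, the renal dipeptidase paralog, rose 2.93-fold from 21.8 and 24.8 CPM to 55.2 and 81.7 (edgeR adjusted p = 0.00848). Ace, the angiotensin converting enzyme whose testis form can release TEX101 from membranes, rose 2.05-fold from 200 and 171 CPM to 313 and 448 (edgeR adjusted p = 0.0203), a call lost when WT B was dropped (edgeR adjusted p = 0.12). Ly6k, which encodes another TEX101 partner, had 0, 0, 11 and 3 reads and was not tested. Of 5 tested Ly6 and uPAR family genes 1, the urokinase receptor gene Plaur, was called higher (1.45-fold, edgeR adjusted p = 0.0412), a call lost when WT A (0.269) or WT B (0.143) was dropped, in limma-voom (0.0586) and with library size alone (0.0573). With CKO A dropped a second Tudor domain gene passed, and with CKO B dropped a further gene passed in each of the lists around Dpep3 and Tex101.

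In the marker lists of germ cell identity, spermatogonia, spermatids and oocytes, no gene was called higher in the main edgeR fit. These lists leave out the 8 genes, and none was made for spermatocytes. Germ cell genes that were called higher, among them Sycp1, Taf7l, Tex19.1, Tdrd9, Dnd1 and Tcfl5, were counted in other lists. Of 13 germ cell surface and identity markers 10 were listed and 6 tested, 0 were called higher and 1 (Gfra1) lower in edgeR. Their summed level was 16.7 to 18.2 CPM in WT and 12.0 to 13.2 in CKO, and most of it came from Gfra1 (10.1 and 6.55 in WT, 3.80 and 3.75 in CKO) and Kit (6.19 and 7.61 in WT, 6.58 and 4.91 in CKO), which were expressed in the WT cells. At an unadjusted p under 0.05 there were 0 higher and 1 lower, in DESeq2 0 higher and 1 lower, and in limma-voom 0 of either. Zp3, of the oocyte coat, had 0, 0, 1 and 2 reads in WT A, WT B, CKO A and CKO B, and the protamine gene Prm1 had 1, 1, 0 and 4. Sall4, of undifferentiated germ cells, and Acrv1, of the acrosome, each had 0, 1, 0 and 0. Nanos2, Gcna and Tnp1 were not listed under those symbols. Genes with 0 reads in every library are absent from the list, so a marker without reads would be missing in this way. Of 22 spermatogonia markers 11 were tested with 0 higher and 1 (Gfra1) lower in edgeR, the same counts at an unadjusted p under 0.05 and in DESeq2, and 0 of either in limma-voom. Of 28 spermatid genes 8 were tested with 0 calls in edgeR, DESeq2 and limma-voom, and 1 higher and 2 lower at an unadjusted p under 0.05, and 1 lower in edgeR without CKO B. Of 22 oocyte genes 3 were tested with 0 calls in the 3 tools and 1 lower at an unadjusted p under 0.05.

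Markers of other cells were also read. Of 9 tested genes in the gonadal somatic list 1 was called higher and 0 lower. This was the Sertoli cell homeobox gene Rhox5, with 6, 9, 755 and 1446 reads in WT A, WT B, CKO A and CKO B (147-fold, edgeR adjusted p = 0.0103). The list also holds Tex11, a germ cell gene, with 1, 9, 35 and 104 reads and no call (edgeR adjusted p = 0.0601). At an unadjusted p under 0.05 there were 3 higher and 3 lower. DESeq2 called 2 higher and limma-voom 1, with 0 lower in either. The call of Rhox5 was lost when WT A (edgeR adjusted p = 0.16) or WT B (0.145) was dropped, another marker of the list passed as higher without CKO A and 1 passed as lower without CKO B. Of 9 tested leukocyte markers 4 were called higher and 0 lower, with a summed level of 35.2 to 46.0 CPM in WT and 51.5 to 76.9 in CKO. The sum was higher in CKO A than in CKO B, mostly through Lyz2 (31.3 and 10.6 CPM), which was not called (edgeR adjusted p = 0.85). Of the 4 called markers, Cd74 (20.0 and 15.9 CPM) and Laptm5 (7.00 and 5.26) were higher in CKO A, and Csf1r (4.11 and 4.74) and Fcer1g (3.38 and 4.18) in CKO B. The part of leukocyte RNA in the rise of the germ cell regulators was not tested. Endothelial markers summed to 142 and 174 CPM in WT and 222 and 141 in CKO, and epithelial markers to 61.7 and 189 in WT and 152 and 81.4 in CKO.

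Over the whole table, the genes other than the 8 with the profile most like that of the 8 were found by Euclidean distance of log2(CPM + 0.1) over the 4 libraries, among genes with a CKO mean of at least 0.5 CPM. Nearest to the median profile of the 8 was Wdr49 at a distance of 0.286, with 0, 2, 180 and 369 reads in WT A, WT B, CKO A and CKO B. Next came Bglap3 (0.619), Rnf183 (0.629), Trap1a (0.638), Xlr3c (0.684) and Pkd1l2 (0.694). Nearest to Dazl, at larger distances, were Tuba3b (1.70), Tex19.1 (2.20), Strc (2.25), Tuba3a (2.27), Clvs1 (2.37) and Serpinb1c (2.40). None of these 6 reached the CPM of Dazl in either CKO library. The most reads were those of Tex19.1 in CKO A (577, against 1208 of Dazl) and of Tuba3b in CKO B (1549, against 2158). This comparison is not scaled for gene length. Per length, Tex19.1 had a mean CKO RPKM of 14.7, against 18.2 for Dazl. Tuba3b and Tuba3a were not called (edgeR adjusted p = 0.257 and 0.118). Tuba3a and Tuba3b encode the same tubulin from near-identical copies, between which reads may be split. With 4 libraries in 2 groups, such a distance mostly reflects 2 levels.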

How the data were processed

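The authors deposited 1 table for the 4 libraries. Per the file headers it holds read counts per gene, a gene length, and log2 fold changes, average log2 CPM, p-values and adjusted p-values of mutant against control. Its 4 other columns of per-sample values were not used. The submitters' processing notes name FastQC 0.11.8, cutadapt 2.5, Trimmomatic 0.36, STAR, edgeR 3.28.1 and GRCm38.p6. Counting tool and strand setting: not given in the sources used here. Signal of a gene and of one that overlaps it can therefore not be separated. Count columns say Control or Mutant, taken as WT and CKO, with no replicate, and the letters A and B follow column order. WT A lacks the leading number that the other 3 column names share. What that number marks is not stated, and the fit without WT A is the comparison within it. Depth was 23071657 to 26420648 reads.

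CKO was compared with WT in R 4.3.3 with edgeR 4.0.16 (filterByExpr, minimum count 10, TMM, robust quasi-likelihood test, Benjamini-Hochberg adjustment over 15210 genes, threshold 0.05), tested on simulated data. Coordinates, types and merged exons came from GENCODE M21 (99.8% of genes matched). The deposited counts are labelled GENCODE M23, so lengths, transcript numbers and gene spans given here are from another release. The SE of an edgeR log2 change was derived as its absolute value divided by the square root of the test's F statistic. Genes with 0 WT reads got a lower bound of the fold, with 3 reads as the floor, and other members an exact 95% interval. Bounds and intervals describe counting error alone, as reads copied by PCR are not separate molecules.

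The genes and lists were chosen with earlier results of these data known. Named were the 8 genes, Dnmt1, Pdgfrb, nearest neighbours, up to 6 called, 2 uncalled and 2 untested genes per list and the 6 nearest in profile. Nanos2, Gcna, Tnp1, Sall4, Acrv1, Pdgfra, Tbx4, Tbx5, Myh11, Tcf21, Notch3, Col1a2, Cspg4, Ddx25 and Ddx43 were added afterwards. Alternatives were DESeq2 1.42.0, limma-voom (limma 3.58.1), RLE factors, library size alone, no filter, mean CPM of 1 or more, a threshold of 0.01, glmTreat at 1.5-fold and each library left out.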

Additional observations from a re-analysis of the deposited data

How the results depend on the processing

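Of the 8 genes, 7 were called higher in DESeq2, limma-voom, with RLE factors, with library size alone and with no filter, 6 by glmTreat against 1.5-fold (Ddx4 lost, adjusted p = 0.0809) and 5 with a mean CPM of at least 1, where Ddx4 and Stk31 were not tested. At an adjusted p under 0.01, 2 were called, Sohlh2 and Dpep3. With single libraries left out the count ran from 3 (without WT B) to 6 (without CKO A), with 4 without WT A and 5 without CKO B, and each of the 7 kept its direction. The cause of the lost calls was not tested.

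All genes called higher numbered 1543 and lower 916 with no filter, 199 and 42 at an adjusted p under 0.01, and 262 and 35 by glmTreat. Leaving out libraries gave 248 to 1289 higher and 91 to 553 lower. Related genes called higher numbered 22 with no filter, 6 at an adjusted p under 0.01, 8 by glmTreat, and 6 to 17 with a library left out. Related genes called lower numbered 2 in DESeq2, 0 in limma-voom, 4 with no filter, 0 at an adjusted p under 0.01, 0 by glmTreat, and 1 to 2 with a library left out.

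No paired analysis was possible because the count columns carry no replicate number that ties them to the numbered sample titles. Depth limits Sohlh1, with 2 reads in all, and Ddx4 and Stk31, with at most 35 reads in any library. The WT side of all 8 rests on 0 to 5 reads per gene.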

Other observations

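The letters CACGTG were in the start windows of the 3 genes of the 8 with the lowest CKO levels and in none of the 5 with the highest, a pattern noticed after the values were seen. Other protein-coding genes with at most 5 WT reads did not show that order. CACGTG was in 4.78% of 2342 such genes with under 10 CKO reads, in 8.48% of 224 with 10 to 99 and in 11.1% of 54 with at least 100. The median number of CpGs in the window was 3, 6 and 7.5 in these classes. Genes with several starts were counted once, by the highest value over their windows, taken separately for CACGTG matches and for CpGs.

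Of the 3525 protein-coding genes with at most 5 WT reads, 10.9% (383) had at least 10 CKO reads, 70 had at least 100 and 11 had at least 1000. By CKO reads Dazl ranked 1, Dpep3 6, Sohlh2 9, Tex13b 16, Tex101 37, Stk31 82, Ddx4 94 and Sohlh1 1204 among them. Genes with 0 reads in every library are not listed. They are therefore missing from the 3525, from the 10.9% and from the classes by CKO reads above.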
